A study of Mus musculus with 3 samples.

Results

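Chemokine receptors are G protein coupled receptors that steer lymphocytes along gradients of chemokines, and different receptors are associated with different destinations. A set of 9, all linked to homing into or retention in tissue, were followed here across sorted mouse lung lymphocytes: Ccr10, Ccr4, Ccr6, Ccr8, Ccr2, Cxcr3, Cxcr6, Cxcr4 and Cxcr5. They were taken by gene symbol, and all 9 were found among the 32285 genes of the deposited count matrices. The rule names symbols and uses no measured value, but the members were chosen with earlier results of these data known.

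Lungs came from GFI1B-GFP reporter mice, from which CD45+ CD90.2+ IL-7R+ cells, alive and negative for lineage markers, were sorted and profiled with 10x Chromium 3' single-cell RNA-seq, 1 library per group. The first group is an IL-18R+ pool that mixes IL-18R+ CD103+ GFP- cells with IL-18R+ CD103- GFP+ cells, with no map from barcode to sort. The second is labelled IL-18R- CD103- GFP-, and the third is labelled IL-18R- ST2+. The sources used here do not give the age or number of mice, or the lineage antibodies. With 1 library per group there is no replicate, so no test was run, and the ranges given in parentheses are 95% limits that cover counting error only. Any difference between libraries can be a difference between animals, sorts or runs, and these cannot be told apart from the sorted phenotype.

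After filtering, 1655, 1872 and 1611 cells were kept in the pool, the IL-18R- CD103- GFP- labelled library and the IL-18R- ST2+ library, with 8970571, 9598728 and 7891960 unique molecular identifiers (UMIs) and median UMIs per cell of 4930, 4768 and 4568. The label of the second library went against its transcripts: Il18r1, the gene for the IL-18 receptor chain used in the sort, was at 663 UPM (UMIs scaled to a total of 1000000) in the pool and 592 UPM in that library, in 86.7% and 86.2% of cells, and at 15.7 UPM in the IL-18R- ST2+ library. It is therefore called the IL-18R- CD103- GFP- labelled library throughout. The CD103 and ST2 labels fitted their genes. Itgae, which encodes CD103, was at 99.8 UPM in the pool, 3.44 UPM in the IL-18R- CD103- GFP- labelled library and 2.79 UPM in the IL-18R- ST2+ library, and Il1rl1, which encodes ST2, was at 868 UPM in the IL-18R- ST2+ library and below 6 UPM in the others. No Gfi1b UMI was counted in any kept cell, and GFP is not among the genes. A total of 1 barcode was shared between the pool and the IL-18R- CD103- GFP- labelled library.

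Cells were assigned to lineages by marker gates that used none of the 9 receptors. T cells (a Cd3d, Cd3e and Cd3g sum of at least 2 UMIs) made up 73.4% of the pool, 85.8% of the IL-18R- CD103- GFP- labelled library and 15.4% of the IL-18R- ST2+ library, although the sort was lineage-negative. They were divided into gamma delta type 17, other gamma delta, alpha beta type 17, other alpha beta and unresolved cells. The gamma delta type 17 gate carried Trdv4 and Cd163l1, genes that its rule did not use, in 90.5% and 93.2% of the pool's cells and 94.4% and 96.0% of the cells of the IL-18R- CD103- GFP- labelled library. CD3-low cells made up 15.2%, 9.24% and 81.4% in the same order of libraries, and were divided by lists of ILC2, ILC3, ILC1 and NK, and Tcf7-associated genes, with the remainder carrying none of these lists. The name of the unresolved T gate did not hold in every library. It held 215 cells in the IL-18R- ST2+ library, with Il1rl1 in 94.9% of cells and Cd3g in 98.6% but Cd3d in 3.72%.

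The start regions of 7 of the 9 receptors were in the RefSeq promoter table (GRCm38.p6, 250 bases before to 50 bases after the start). Those of Ccr6, Ccr8 and Cxcr3 are shown because these genes differed most between libraries among those with an entry. Capitals mark matches on either strand to 3 motifs. The first, AGGTCA, is a ROR half-site and occurs in 16.3% of all 32851 promoters of this length. The second, AGATAA, is a GATA motif, found in 11.2% of them. The third, AGGTGT, is a T-box half-site, found in 13.7%. No matches overlap.

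Ccr6 start 1, chr17:8235793-8236092, plus strand: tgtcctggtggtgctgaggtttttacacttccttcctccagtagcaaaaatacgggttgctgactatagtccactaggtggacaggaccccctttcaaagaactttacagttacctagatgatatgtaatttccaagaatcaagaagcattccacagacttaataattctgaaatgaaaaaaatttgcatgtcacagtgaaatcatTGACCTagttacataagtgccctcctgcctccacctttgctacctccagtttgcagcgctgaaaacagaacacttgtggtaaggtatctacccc
Ccr6 start 2, chr17:8242276-8242575, plus strand: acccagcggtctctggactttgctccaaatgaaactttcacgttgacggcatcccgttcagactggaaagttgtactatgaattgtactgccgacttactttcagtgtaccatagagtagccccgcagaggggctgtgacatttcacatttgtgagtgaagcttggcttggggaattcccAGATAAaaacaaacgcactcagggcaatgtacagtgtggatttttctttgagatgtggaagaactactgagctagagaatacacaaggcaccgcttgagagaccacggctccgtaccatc
Ccr8, chr9:120091883-120092182, plus strand: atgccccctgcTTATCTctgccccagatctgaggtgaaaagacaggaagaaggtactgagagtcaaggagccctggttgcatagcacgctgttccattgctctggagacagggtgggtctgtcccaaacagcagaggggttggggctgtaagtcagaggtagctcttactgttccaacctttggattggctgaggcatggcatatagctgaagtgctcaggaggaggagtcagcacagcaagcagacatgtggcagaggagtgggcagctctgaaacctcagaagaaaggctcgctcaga
Cxcr3, chrX:101734098-101734397, minus strand: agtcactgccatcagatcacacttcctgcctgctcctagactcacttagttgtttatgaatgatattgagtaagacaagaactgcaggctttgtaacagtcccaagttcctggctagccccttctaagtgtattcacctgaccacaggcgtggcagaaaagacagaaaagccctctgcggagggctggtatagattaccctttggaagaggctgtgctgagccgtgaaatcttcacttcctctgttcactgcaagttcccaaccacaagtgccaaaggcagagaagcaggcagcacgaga

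The first Ccr6 start holds 1 match to the ROR half-site, on the minus strand. The second Ccr6 start and the Ccr8 start hold 1 match each to the GATA motif. None of the 3 motifs was found in these 300 bases of Cxcr3, Ccr4, Cxcr6 or Cxcr4, and Ccr2 holds 1 GATA match. With motifs as common as these, a match is a description of the letters and was not tested for binding.

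Between the pool and the IL-18R- CD103- GFP- labelled library, Ccr10, Ccr6 and Ccr4 were higher in the pool and Cxcr3 was lower. A gene was measured in a pair when either library reached 20 UPM, and called at a ratio of at least 2 with sums raised to a floor of 3 UMIs. Of the 9 receptors 7 were measured in this pair, 3 were called higher in the pool, 1 was called lower and 3 were called neither. Among the 5812 genes measured in the pair, 2.55% were called higher in the pool and 0.791% lower. The members' share called is above the share of all measured genes in both directions, over a set of 7 genes. The members were chosen with earlier results of these data known, so this comparison gives no independent support.

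**Figure D1:**
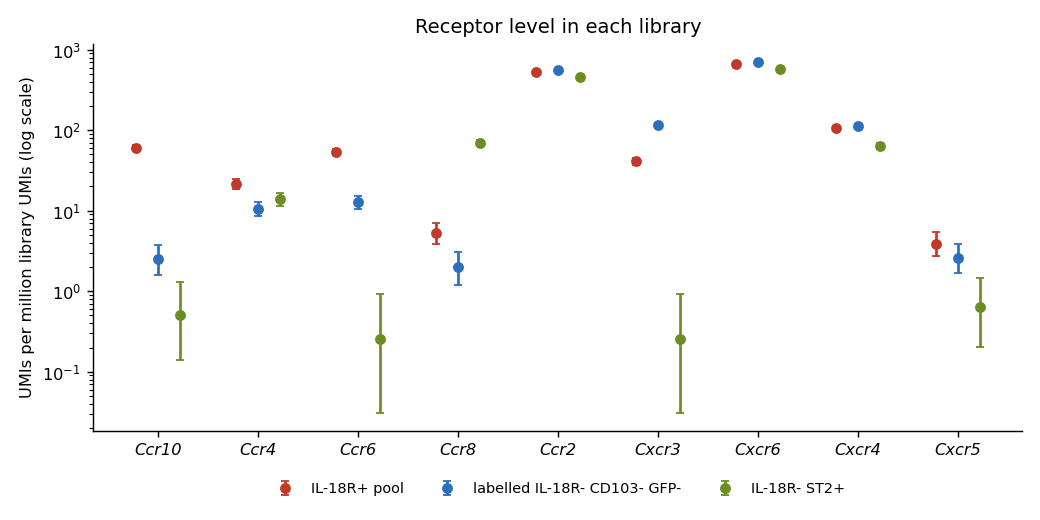
Level of each receptor (UPM, log axis) in the IL-18R+ pool, the IL-18R- CD103- GFP- labelled library and the IL-18R- ST2+ library, with bars for the exact 95% Poisson limits (counting error only). Ccr10 stands at 59.9 UPM in the pool, against 2.5 and 0.507 UPM in the other libraries, Ccr8 stands at 69.3 UPM in the IL-18R- ST2+ library, and Ccr2 and Cxcr6 lie within a narrow range in all 3.

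Ccr10 (ENSMUSG00000044052, chr11:101172997-101175443, minus strand, GRCm38), the receptor of the epithelial chemokines Ccl27 and Ccl28, had the largest ratio of the 9 between the pool and the IL-18R- CD103- GFP- labelled library. It was at 59.9 UPM in the pool (537 UMIs, 7.79% of cells), 2.5 UPM in the IL-18R- CD103- GFP- labelled library (24 UMIs, 0.641%) and 0.507 UPM in the IL-18R- ST2+ library (4 UMIs, 0.186%). The pool was 23.9-fold above the IL-18R- CD103- GFP- labelled library (15.9 to 37.7) and 118-fold above the IL-18R- ST2+ library (45.9 to 435). The pool's UMIs were spread over 129 positive cells, and the 3 cells with most held 12.7% of them. Without the 3 such cells of each library the ratio to the IL-18R- CD103- GFP- labelled library was 41.8. In that library the 3 cells had held 50% of the 24 UMIs, from 12 positive cells, so this ratio rests on a low count.

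The Ccr10 UMIs of the pool lay mainly outside its T cells. CD3-low cells were 15.2% of the pool and held 71.3% of its Ccr10 UMIs, at 220 UPM and with a UMI in 72 of 252 cells (28.6%), against 1 UMI in 173 CD3-low cells of the IL-18R- CD103- GFP- labelled library. That ratio was 190, with limits of 33.9 to 7532 because the lower count is 1. T cells were at 22.2 UPM in the pool and 2.69 UPM in the IL-18R- CD103- GFP- labelled library, an 8.26-fold difference (5.24 to 13.6). Both compartments were higher in the pool. The pool's 51 Ccr10+ T cells had Cd3g in 100% of cells, but Cd3d in 72.5% and Cd3e in 68.6%. Its 1163 Ccr10- T cells had these 3 genes in 99.8%, 94.7% and 95.5%. Whether some Ccr10+ cells of the T gate are innate cells that carry Cd3g was not tested.

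Within the pool's CD3-low cells, no single lineage list held the Ccr10 transcripts. Cells of the ILC2 list were at 277 UPM (12 of 29 cells), cells of the ILC3 list at 266 UPM (3 of 16), cells with none of the lists at 275 UPM (28 of 90), and cells of the Tcf7-associated list at 196 UPM (19 of 79). ILC1 and NK list cells were lower, at 73.3 UPM (9 of 37). In the IL-18R- CD103- GFP- labelled library the cells with no list had no Ccr10 UMI in 69 cells, which makes the pool at least 27.2-fold higher against a floor of 3 UMIs over the gate. ILC2 list cells stood apart between the pool and the library sorted for ST2: 12 of 29 pool cells had Ccr10, while 1 of 1197 cells of the IL-18R- ST2+ library did. The 2 sets are unlike in Il1rl1, a gene of this list. It had 0 UMIs in the pool's 72 Ccr10+ CD3-low cells, so the 12 cells met the list through Il5, Il13 or Klrg1. In the IL-18R- ST2+ library, 93.1% of cells had an Il1rl1 UMI.

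Among T cells of the pool, Ccr10 was highest by UPM in other alpha beta cells, at 76.9 UPM against 11.8 UPM in the IL-18R- CD103- GFP- labelled library (6.51-fold, 2.90 to 17.1). This level rests on 43 UMIs in 8 of 96 cells, a share of positive cells no higher than in other gamma delta cells (14 of 158). Over all T gates of the pool, 1 cell held 27 of the 136 Ccr10 UMIs, and the counting limits do not cover such unevenness between cells. Unresolved T cells were at 51.3 UPM against 2.44 UPM, where the library labelled IL-18R- CD103- GFP- had 2 UMIs (21.1-fold, 5.51 to 179). Other gamma delta cells were at 30.3 UPM against 0.323 UPM, from 22 UMIs and 1 UMI (93.8-fold, 15.2 to 3871). Gamma delta type 17 cells, the largest gate of the pool, were at 5.80 UPM against 3.36 UPM, under the level needed to be measured. The pool's 47 cells of the myeloid gate (median 4859 UMIs), which should lack the receptor, had 0 Ccr10 UMIs. A count of 0 allows a share of cells with a UMI of up to 6.38% (3 of 47), which does not limit the share of cells expressing the gene. Not all non-lymphoid gates were without Ccr10. The lymphoid gates held 519 of the pool's 537 Ccr10 UMIs and 123 of its 129 positive cells, and the rest lay in the B cell and stroma gates.

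Ccr10 lies wholly inside Cntnap1, a neuronal adhesion gene on the opposite strand (chr11:101170523-101190724, plus strand). Cntnap1 moved with Ccr10: it was at 13.6 UPM in the pool, 0.521 UPM in the IL-18R- CD103- GFP- labelled library and 0.127 UPM in the IL-18R- ST2+ library, and 43.4% of Ccr10+ cells of the pool had a Cntnap1 UMI, against 0.786% of Ccr10- cells. The sources used here do not give the strand setting of the counting. Whether reads of 1 of these genes were counted to the other was not tested.

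**Figure D2:**
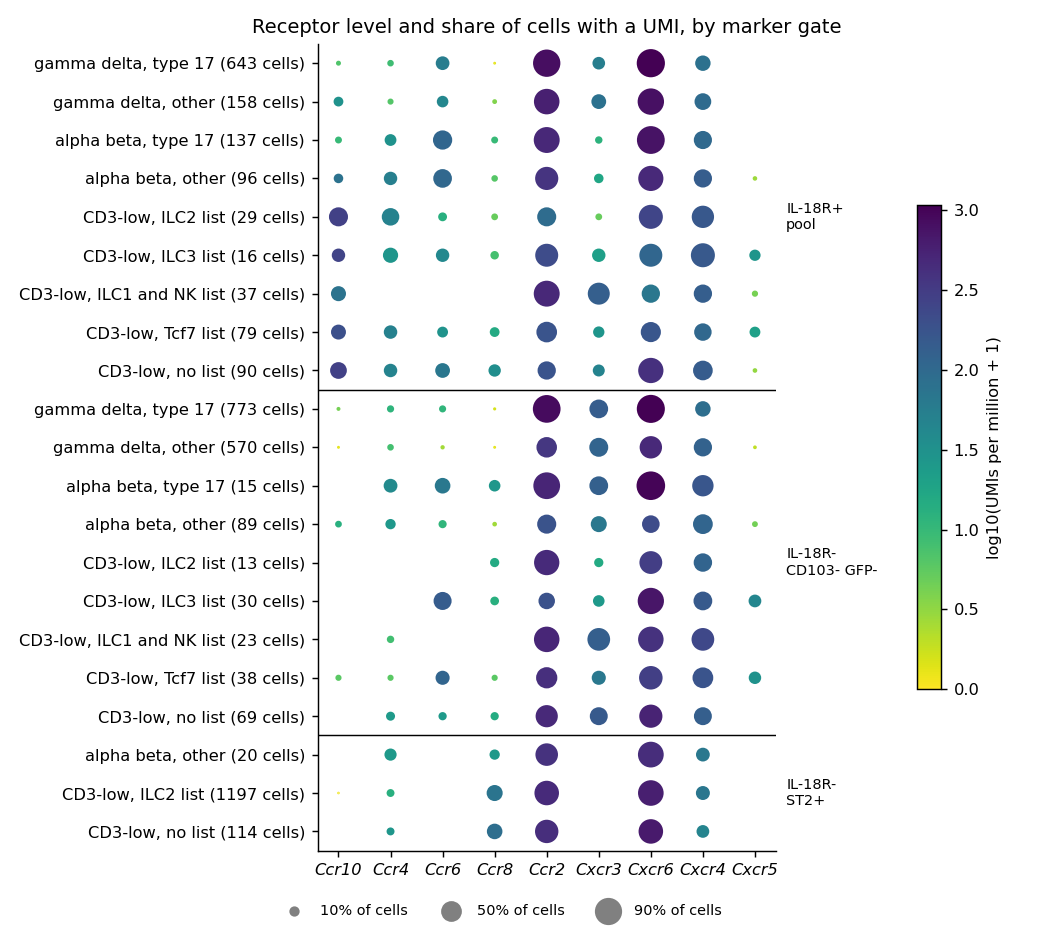
Receptor levels by lineage gate and library: dot colour is log10(UPM + 1) and dot size the share of cells with a UMI, with the gates of the pool in the top block, those of the IL-18R- CD103- GFP- labelled library in the middle and those of the IL-18R- ST2+ library at the bottom. Ccr10 fills the CD3-low gates of the pool, Ccr8 the gates of the IL-18R- ST2+ library, and Ccr2 and Cxcr6 are large in nearly every row.

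Ccr10+ CD3-low cells of the pool differed from Ccr10- CD3-low cells in other genes. Itgae was at 177 UPM in the 72 Ccr10+ cells and 33.5 UPM in the 180 Ccr10- cells (5.29-fold), with a UMI in 63.9% and 13.3% of cells. Cd7, a surface protein of T cells and innate lymphoid cells, was at 631 against 206 UPM (84.7% and 33.9% of cells), and Cd74, the MHC class II invariant chain, at 791 against 162 UPM. Kit, a receptor of progenitors and innate lymphoid cells, was lower in the Ccr10+ cells, at 76.8 against 217 UPM, and so was the transcription factor gene Sox4, at 71.3 against 182 UPM. Gata3 (291 and 332 UPM) and Il18r1 (532 and 760 UPM) were less than 2-fold apart. Il1rl1 had 0 UMIs in Ccr10+ cells and 29 in Ccr10- cells. Median UMIs per cell were 6306 in the Ccr10+ cells and 5836 in the Ccr10- cells.

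The 5 genes with the highest ratio in Ccr10+ cells of the pool were all higher in its Ccr10+ CD3-low cells too. They were Cntnap1, at 152 against 4.19 UPM, Cd74, given above, and 3 cell cycle genes. Ccnb2, a mitotic cyclin gene, was at 69.4 against 16.7 UPM (11.1% and 3.33% of cells). Ccne2, a cyclin of S phase entry, was at 65.8 against 11.7 UPM, and Clspn, a replication checkpoint gene, at 76.8 against 24.3 UPM. The Ccr10+ cells of the pool include these CD3-low cells, so the values are not independent of that choice, and other cell cycle genes were not tallied. In T cells, where 51 cells were Ccr10+ and 1163 Ccr10-, Cd7 was 6.19-fold higher in the Ccr10+ cells, while Itgae was at 119 against 118 UPM.

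Ccr4 (chr9:114490316-114504916, minus strand), the receptor of Ccl17 and Ccl22, was at 21.4 UPM in the pool (8.28% of cells), 10.6 UPM in the IL-18R- CD103- GFP- labelled library (4.33%) and 13.8 UPM in the IL-18R- ST2+ library (5.46%). Its ratio between the first 2 was 2.01 (1.58 to 2.59), so it sat at the threshold and was not called with other library scalings. In T cells it was at 19.3 against 11.1 UPM (1.73-fold, 1.31 to 2.30), under the level needed to be measured. CD3-low cells differed more, at 37.9 against 10.4 UPM in the pool and the IL-18R- CD103- GFP- labelled library (3.64-fold, 1.81 to 8.31). Other alpha beta cells were at 53.6 against 25.3 UPM, while gamma delta type 17 cells were low in both, at 7.73 against 10.6 UPM. Among CD3-low cells of the pool, the ILC2 list cells had the highest share with Ccr4, 10 of 29 (34.5%), and none of the 37 ILC1 and NK list cells had a UMI.

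Ccr6 (chr17:8236043-8257141, plus strand), the Ccl20 receptor known from type 17 lymphocytes, was at 53.4 UPM in the pool (19.8% of cells), 12.8 UPM in the IL-18R- CD103- GFP- labelled library (4.38%) and 0.253 UPM in the IL-18R- ST2+ library (2 UMIs). In T cells it was at 66.9 UPM in the pool against 7.95 UPM in the IL-18R- CD103- GFP- labelled library (8.41-fold, 6.46 to 11.1). Gamma delta type 17 cells were at 56.1 against 10.1 UPM (5.57-fold, 3.87 to 8.21), with 19.8% and 3.88% of cells positive. Of the genes measured in that gate, 0.619% were called in either direction. In other gamma delta cells Ccr6 was at 41.3 against 1.61 UPM (25.6-fold, 9.83 to 84.4), and in other alpha beta cells at 104 against 10.1 UPM (10.2-fold, 4.43 to 29.0). The highest share was in the pool's alpha beta type 17 cells, at 42.3% of 137 cells and 110 UPM.

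In CD3-low cells the order was different. Ccr6 was at 33.3 UPM in the pool and 61.3 UPM in the IL-18R- CD103- GFP- labelled library, a ratio of 0.543 that did not reach the size rule. The Tcf7-associated gate was called lower in the pool, at 28.7 against 111 UPM (0.259, 0.127 to 0.517), from 79 and 38 cells. Cells of the ILC3 list were at 40.9 against 145 UPM, from 16 and 30 cells, with 3 and 11 of them positive. CD3-low cells with no list were higher in the pool, at 66.0 against 23.6 UPM (2.80-fold, 1.21 to 7.54). Ccr6 was not found in any of the 1197 ILC2 list cells of the IL-18R- ST2+ library, which allows a share of cells with a UMI of up to 0.251% (3 of 1197).

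**Figure D3:**
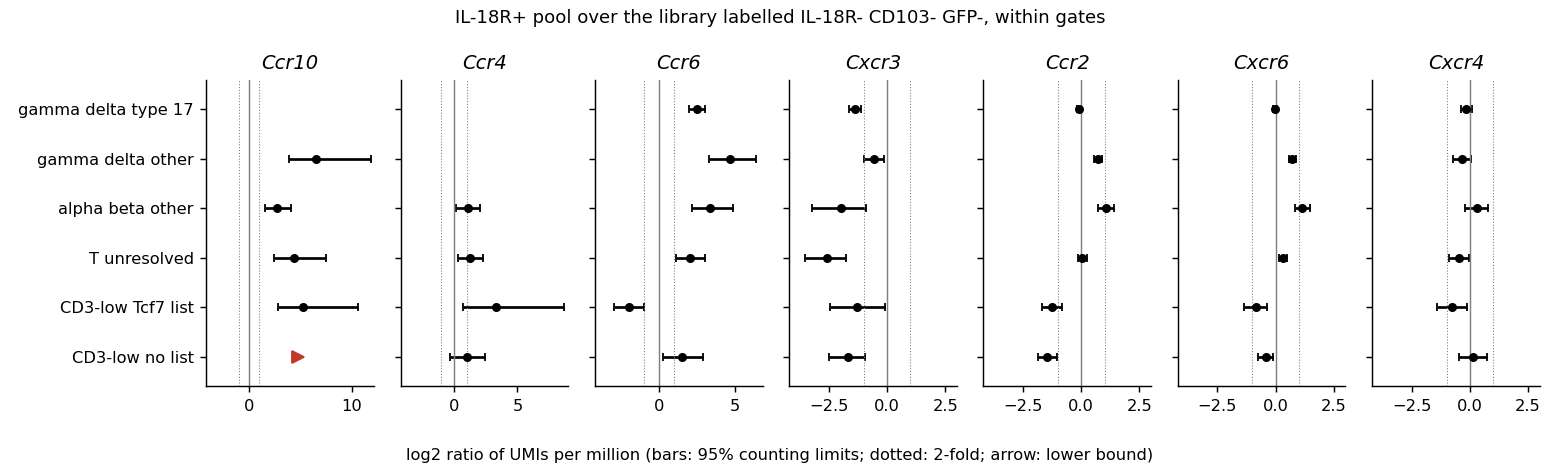
Ratio of the IL-18R+ pool over the IL-18R- CD103- GFP- labelled library for 7 receptors by gate, on a log2 axis, with exact 95% limits for counting error. Dotted lines mark 2-fold, the arrow is the lower bound of a gate with 0 UMIs in the second library, and points not measured are left out. Ccr6 lies above 0 in the T cell gates and below 0 in the Tcf7-associated gate, and Cxcr3 lies below 0 in the 6 gates shown.

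Cxcr3 (chrX:101731535-101734269, minus strand), the receptor of the interferon-induced chemokines Cxcl9 and Cxcl10, was lower in the pool. It was at 40.9 UPM in the pool (13.6% of cells), 117 UPM in the IL-18R- CD103- GFP- labelled library (37.9%) and 0.253 UPM in the IL-18R- ST2+ library (2 UMIs in 1 cell). The pool was 2.86-fold lower than the IL-18R- CD103- GFP- labelled library (2.54 to 3.23). Gamma delta type 17 cells were at 54.8 against 140 UPM (2.56-fold lower, 2.14 to 3.06), with 16.3% and 39.8% of cells positive. Unresolved T cells were at 15.6 against 93.9 UPM, and other alpha beta cells at 16.1 against 64.1 UPM. Other gamma delta cells were at 78.5 against 115 UPM (0.684, 0.508 to 0.907) and CD3-low cells at 47.7 against 93.7 UPM (0.509, 0.370 to 0.700), neither of which reached the size rule. ILC1 and NK list cells were at 134 against 133 UPM, with 21 of 37 and 14 of 23 cells positive. All 1197 ILC2 list cells of the IL-18R- ST2+ library were without a Cxcr3 UMI.

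Ccr8 (chr9:120092114-120094906, plus strand), the receptor of Ccl1, was highest in the IL-18R- ST2+ library. It was at 5.24 UPM in the pool (2.54% of cells), 1.98 UPM in the IL-18R- CD103- GFP- labelled library (1.02%) and 69.3 UPM in the IL-18R- ST2+ library (27.3%). The pool was 13.2-fold lower than the IL-18R- ST2+ library (9.81 to 18.2), and the IL-18R- CD103- GFP- labelled library was 35.0-fold lower (22.2 to 58.6). In the IL-18R- ST2+ library the level varied little between gates: 71.8 UPM in ILC2 list cells, 87.1 UPM in CD3-low cells with no list and 63.4 UPM in the unresolved T gate. The pool's Ccr8 was mostly in CD3-low cells, at 14.9 UPM (9.13% of cells) against 2.94 UPM in its T cells, and reached 34.1 UPM in CD3-low cells with no list (14 of 90 cells).

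Against the IL-18R- ST2+ library, 8 receptors were measured in the pool's pair: Ccr10, Ccr6 and Cxcr3 were called higher in the pool, Ccr8 was called lower, and Ccr4, Ccr2, Cxcr6 and Cxcr4 neither. Of 5930 genes measured, 12.3% were called higher in the pool and 4.33% lower. In the IL-18R- CD103- GFP- labelled library against the IL-18R- ST2+ library, 5 receptors were measured, with Cxcr3 called higher and Ccr8 lower, beside 9.57% and 5.4% of the 5736 genes measured. All 3 pairs share libraries, so their counts are not independent of each other.

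Ccr2 and Cxcr6 were detected in most cells of every library. Ccr2 (chr9:124101950-124113557, plus strand), the receptor of Ccl2, was at 527 UPM in the pool (512 to 543), 561 UPM in the IL-18R- CD103- GFP- labelled library (546 to 576) and 455 UPM in the IL-18R- ST2+ library (440 to 470). Cxcr6 (chr9:123806475-123811760, plus strand), the receptor of Cxcl16, was at 663, 696 and 575 UPM in the same order. None of the pairs differed by the size rule in these 2 genes. Both were highest in gamma delta type 17 cells, where Ccr2 was at 818 UPM in the pool and 884 UPM in the IL-18R- CD103- GFP- labelled library, and Cxcr6 at 1055 and 1073 UPM, in 97.0% and 96.0% of cells. Cxcr6 lies wholly inside Fyco1, a gene on the opposite strand, which was at 38.6, 35.8 and 37.9 UPM in the 3 libraries.

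Single gates did differ for these receptors. In other alpha beta cells Ccr2 was at 377 against 179 UPM in the pool and the IL-18R- CD103- GFP- labelled library (2.11-fold, 1.66 to 2.69), and Cxcr6 at 474 against 214 UPM (2.21-fold, 1.78 to 2.75). CD3-low cells ran the other way: with no list Ccr2 was at 175 against 478 UPM (0.365, 0.275 to 0.483), in the Tcf7-associated gate at 174 against 418 UPM (0.416, 0.307 to 0.565), and Cxcr6 over all CD3-low cells at 222 against 480 UPM (2.16-fold lower, 1.88 to 2.49). The count of members called depends on the gate, and so does the share of all measured genes called. Over all T cells 3 of 6 measured members were called (all genes, 1.59%). The counts were 2 of 5 in gamma delta type 17 cells (0.619%), 2 of 6 in other gamma delta cells (6.9%), 6 of 7 in other alpha beta cells (17.3%) and 4 of 7 in unresolved T cells (6.61%). Over all CD3-low cells 3 of 7 were called (9.16%), with 5 of 8 in the Tcf7-associated gate (18.9%) and 5 of 8 in cells with no list (19%).

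Cxcr4 (chr1:128588199-128592293, minus strand), the Cxcl12 receptor that acts in bone marrow retention, was at 106 UPM in the pool and 111 UPM in the IL-18R- CD103- GFP- labelled library, with overlapping limits (99.3 to 113 and 105 to 118), and at 63.2 UPM in the IL-18R- ST2+ library. Among the pool's gates the myeloid gate was highest, at 256 UPM (32 of 47 cells). Cxcr5 (chr9:44511787-44561877, minus strand), the Cxcl13 receptor of B cells and follicular T cells, was at 3.90, 2.60 and 0.634 UPM and not measured in any pair. Among lymphoid gates it was highest, in the pool and the IL-18R- CD103- GFP- labelled library, in the ILC3 list cells (27.2 and 42.4 UPM, from 4 and 7 UMIs) and the Tcf7-associated gate (19.7 and 30.2 UPM, from 11 and 6 UMIs), with 0 in 643 and 773 gamma delta type 17 cells. The B, myeloid and stroma gates held 17 of the 35 Cxcr5 UMIs of the pool, and T cells held 8 of the 25 UMIs of the IL-18R- CD103- GFP- labelled library. Cxcr5 also overlaps 110 bases of Bcl9l.

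The relation of the receptors to Itgae was read per cell in the pool, where the CD103+ GFP- and CD103- GFP+ sorts are mixed. By these labels CD103 and GFP differ together, so a difference by Itgae cannot be told apart from a difference between the GFP sorts. Each cell was thinned to 2000 UMIs, which left out 19 pool cells, and cells outside the B, myeloid and stroma gates were used. Thinning is 1 random draw, so the exact mean share over all possible draws, a setting chosen after the drawn shares were seen, and the shares with all UMIs are given where a result turns on them. Itgae itself was at 118 UPM in T cells and 78.7 UPM in CD3-low cells of the pool, with a UMI in 38.6% and 27.8% of them.

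In CD3-low cells, 4 of the 8 receptors reaching 2% of either set were at least 2-fold more frequent among Itgae+ cells. Ccr10 was found in 15 of 37 Itgae+ cells (40.5%, 24.8 to 57.9) and 34 of 213 Itgae- cells (15.96%, 11.3 to 21.6). Ccr4 was in 24.3% and 4.69%, Ccr6 in 18.9% and 6.10%, and Ccr8 in 13.5% and 1.88% of the Itgae+ and Itgae- cells, the last from 5 and 4 cells. Ccr2 (18.9% and 22.5%), Cxcr6 (48.6% and 33.8%) and Cxcr4 (18.9% and 19.7%) were less than 2-fold apart. With 37 Itgae+ cells many genes pass such a rule: 38.5% of the 8537 genes tested passed in either direction and 16.7% were higher in Itgae+ cells.

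The same 4 receptors passed in the mean over all draws and with all UMIs. The mean shares in Itgae+ and Itgae- CD3-low cells were 43.4% and 16.4% for Ccr10, 15.2% and 5.95% for Ccr4, 15.4% and 5.62% for Ccr6, and 9.77% and 3.07% for Ccr8. In that mean, 5.17% of all genes were higher in Itgae+ cells and 18.2% passed in either direction. With all UMIs, Ccr10 was in 46 of 70 Itgae+ cells (65.7%) and 14.3% of 182 Itgae- cells, Ccr4 in 35.7% and 11.5%, Ccr6 in 28.6% and 8.79%, and Ccr8 in 18.6% and 5.49%, and Cxcr5, at 0 of 70 and 13 of 182 cells (7.14%), was lower in the Itgae+ cells. Median UMIs per cell were 5246 in these Itgae+ cells and 6183 in the Itgae- cells. The share of all genes passing with all UMIs was not taken, so the receptors passing in that setting have no background beside them.

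In T cells of the pool none of the receptors was 2-fold apart between 239 Itgae+ and 969 Itgae- T cells, where Ccr10 was in 2.09% and 2.17% and Ccr6 in 14.2% and 10.0%, against 6.85% of all genes tested. Over all lymphoid cells Ccr8 alone passed, in 7 of 276 Itgae+ cells (2.54%) and 11 of 1182 Itgae- cells (0.931%), beside 5.51% of all genes. The Ccr8 result rests on 18 cells, and no receptor passed in the mean over all draws, where Ccr8 stayed 2.08-fold apart (1.93% and 0.926%) but was under the 2% minimum.

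**Figure D4:**
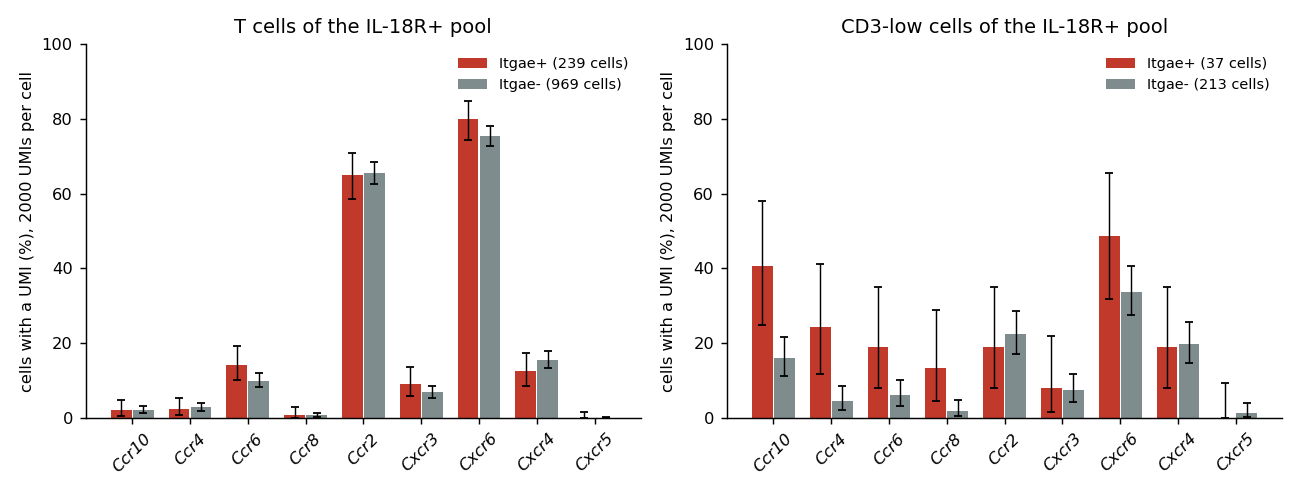
Share of Itgae+ and Itgae- cells of the IL-18R+ pool with a UMI of each receptor, after thinning to 2000 UMIs per cell, for T cells (left) and CD3-low cells (right), with exact 95% binomial limits. Ccr10, Ccr4, Ccr6 and Ccr8 are at least 2-fold more frequent in Itgae+ than in Itgae- CD3-low cells, and no receptor is 2-fold apart in T cells.

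Receptors were next read in pairs in the same cell. In thinned lymphoid cells of the pool, 21 of 36 pairs had at least 20 positive cells for both members. A pair counted when the second receptor's share among cells with the first was at least 2 times, or at most 0.5 times, its share among cells without the first. The rule counted 4 pairs: Ccr10 with Ccr4, Ccr10 with Ccr6, Ccr10 with Ccr2 and Ccr6 with Cxcr3. Pairs of other genes were not run through this rule, so the count cannot be set against a share of all pairs. Ccr10 with Ccr4 and Ccr6 with Cxcr3 also counted in the mean over all draws and with all UMIs. Ccr4 with Cxcr3 did not count in the draw, where Cxcr3 was in 5.66% of Ccr4+ and 7.47% of Ccr4- cells, but counted in the mean over all draws (2.68% and 7.67%) and with all UMIs (8 of 131 and 207 of 1335 cells, 6.11% and 15.5%).

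Ccr6 and Cxcr3 were rarely in the same cell. Cxcr3 was in 1 of 151 Ccr6+ cells (0.662%, 0.0168 to 3.63) and 107 of 1307 Ccr6- cells (8.19%, 6.76 to 9.81). The same order was found inside gates. In T cells Cxcr3 was in 0.763% of Ccr6+ and 8.17% of Ccr6- cells, and in gamma delta type 17 cells in 1 of 62 Ccr6+ cells (1.61%) and 10.3% of Ccr6- cells. Averaged over all draws, the shares in lymphoid cells were 1.45% and 8.22%, and with all UMIs 3.46% and 17.8%. With all UMIs, the share in gamma delta type 17 cells of the pool was 3.15% of 127 Ccr6+ cells and 19.6% of 516 Ccr6- cells. The IL-18R- CD103- GFP- labelled library, a separate library, had Cxcr3 in 2 of 30 Ccr6+ gamma delta type 17 cells (6.67%) and 41.2% of 743 Ccr6- cells.

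Ccr4 was more frequent in cells with Ccr10 than in cells without it. In pool lymphoid cells Ccr4 was in 13.3% of Ccr10+ and 3.11% of Ccr10- cells (4.29-fold), in 10.5% and 3.30% in the mean over all draws, and in 31 of 123 and 100 of 1343 cells with all UMIs (25.2% and 7.45%). With all UMIs the ratio was 2.98 in CD3-low cells (34.7% and 11.7%) and 1.73 in T cells (11.8% and 6.79%), the last being inside the 2-fold range.

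Ccr10 with Ccr6 differed in ratio by compartment. Within CD3-low cells of the pool Ccr6 was in 13 of 49 Ccr10+ cells (26.5%) and 7 of 201 Ccr10- cells (3.48%), in 15.4% and 4.91% in the mean over all draws, and in 22 of 72 and 14 of 180 cells with all UMIs (30.6% and 7.78%). Within T cells Ccr6 was in 12 of 51 Ccr10+ cells (23.5%) and 23.2% of Ccr10- cells with all UMIs. Over all lymphoid cells the drawn shares, 21.3% and 9.76% (2.19-fold), were farther apart than the mean over all draws (14.4% and 10.5%) and the shares with all UMIs (27.6% and 21.1%), so over lymphoid cells this pair counted in the draw but in neither of those.

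Ccr2, which most T cells of the pool carried, was less frequent in cells with Ccr10. Over lymphoid cells it was drawn in 18.7% of Ccr10+ and 60.1% of Ccr10- cells, with a mean over all draws of 29.1% and 60.7%, but with all UMIs it was in 53.7% and 80.4%, which is inside the 2-fold range. In CD3-low cells Ccr2 was also less frequent beside Ccr6, in 8 of 36 Ccr6+ cells (22.2%) and 117 of 216 Ccr6- cells (54.2%) with all UMIs, while in T cells it was in 83.0% and 84.4%. Ccr4 with Ccr6 was not seen in the 34 Ccr4+ T cells drawn, but Ccr6 was in 26 of 85 Ccr4+ T cells (30.6%) and 22.7% of Ccr4- T cells with all UMIs.

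**Figure D5:**
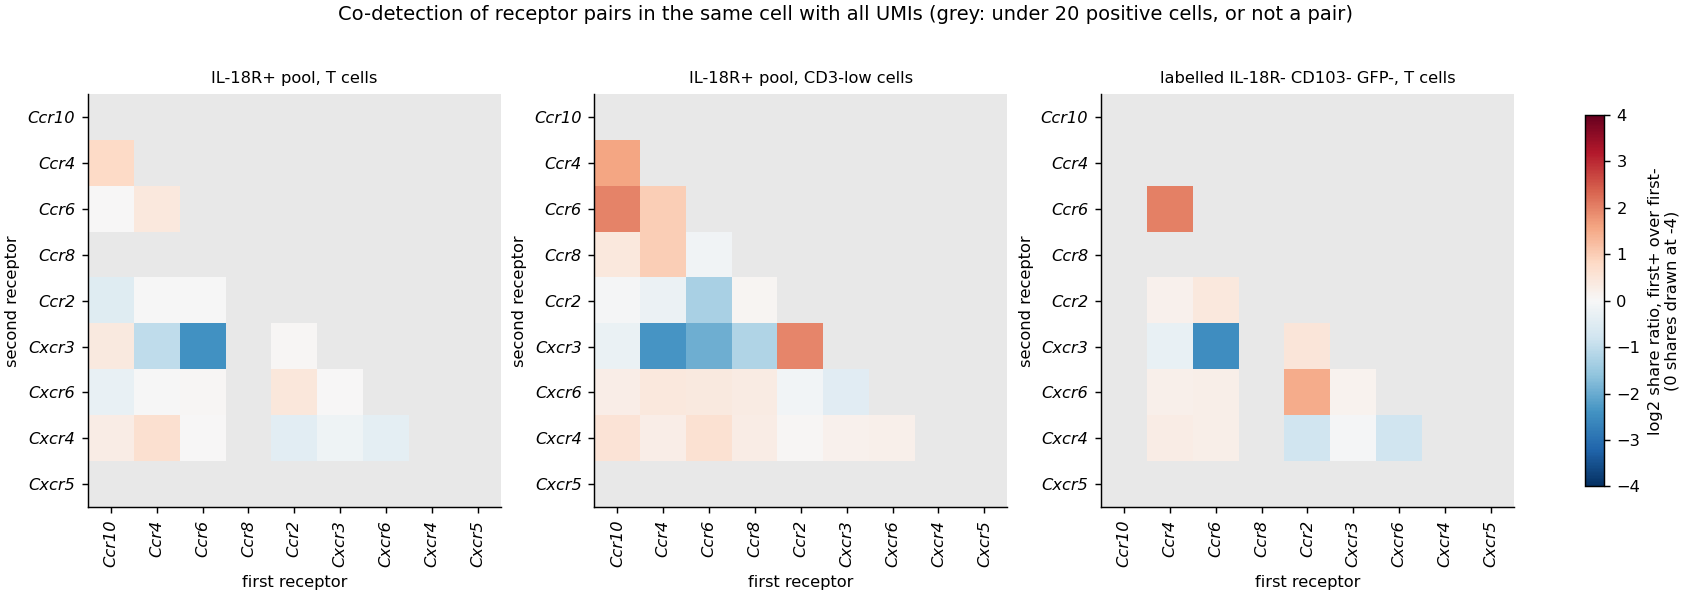
Ratio of the share with the second receptor (rows) among cells with the first (columns) to the share among cells without it, for T cells and CD3-low cells of the IL-18R+ pool and T cells of the IL-18R- CD103- GFP- labelled library, with all UMIs (colour is the log2 ratio, grey is a pair with under 20 positive cells). Ccr6 with Cxcr3 is low in all 3 panels, and Ccr10 with Ccr4 and with Ccr6 is high in CD3-low cells of the pool.

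The share of cells with Cxcr6 differed between Ccr2+ and Ccr2- cells in some gates. In other gamma delta cells of the IL-18R- CD103- GFP- labelled library, Cxcr6 was in 82.9% of 228 Ccr2+ cells and 22.7% of 339 Ccr2- cells (3.65-fold). In gamma delta type 17 cells of the same library the shares were 82.5% and 79.0%. The pool gave 80.0% and 46.2% in other gamma delta cells and 32.7% and 36.9% in CD3-low cells, both inside the 2-fold range. Cells with at least 2 of the 6 less widespread receptors (Ccr10, Ccr4, Ccr6, Ccr8, Cxcr3 and Cxcr5) made up 25 of 250 CD3-low cells of the pool (10.0%) and 0 of 170 of the IL-18R- CD103- GFP- labelled library, after thinning. With all UMIs they made up 70 of 252 (27.8%, 22.3 to 33.7) and 13 of 173 (7.51%, 4.06 to 12.5).

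Most ligands of the receptors were too low to be measured. Of 16 ligand genes 14 were used, and Cxcl10 was the only one measured in the pool against the IL-18R- CD103- GFP- labelled library, at 90.3 and 74.0 UPM. Ccl1, the Ccr8 ligand, was at 0.111 UPM in the pool (1 UMI), 2.92 UPM in the IL-18R- CD103- GFP- labelled library and 1045 UPM in the IL-18R- ST2+ library (8245 UMIs), the library in which its receptor was also highest. Of 20 other chemoattractant receptors 6 were measured in the first pair. None was higher in the pool, while Ccr7, which guides cells to lymph nodes, was at 27.8 against 84.3 UPM (3.04-fold lower). Of 16 receptor signalling genes 14 were measured and none called, with Gnaq the farthest, at 37.2 against 21.4 UPM. Of all genes measured in this pair, 2.55% were called higher in the pool and 0.791% lower, so a list of 14 without a call is near that share. Among 12 adhesion genes Itgae, a sort gene, was 29.0-fold higher in the pool.

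Across 22 library and gate groups of at least 30 cells, the genes most like each receptor in log2(UPM + 1) were listed by Pearson correlation over 9465 genes, as a description: groups share libraries, gates and depth. Cntnap1 was most like Ccr10 (0.934), followed by Wdr70 (0.839) and Ccnb2 (0.835). Ifngr1 (0.911) and Klrk1 (0.887) were most like Cxcr3, Gm20186 (0.944) and Lztfl1 (0.895) most like Ccr8, 5830411N06Rik (0.893) and Ifngr2 (0.864) most like Ccr6, Kcnn4 (0.846) most like Ccr4, Pstpip1 (0.758) most like Ccr2, Irf7 (0.872) most like Cxcr4, and Dll1 (0.820) most like Cxcr5. Il2ra and Podnl1 (both 0.949) were most like Cxcr6.

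Cells with a receptor UMI were also set against cells without one in the library with most positive lymphoid cells. Ccr4+ cells of the pool had Ccr10 at 230 UPM against 45.1 UPM in Ccr4- cells (5.11-fold), and Stmn1, a gene of dividing cells, 3.41-fold higher. Ccr2+ cells of the IL-18R- CD103- GFP- labelled library had Ltb4r1, the leukotriene B4 receptor, at 258 against 32.7 UPM (7.89-fold), and Plxnd1 at 114 against 11.7 UPM. Cxcr3+ cells of that library had Itga1, the collagen-binding integrin chain CD49a, 2.52-fold higher, and Cxcr4+ cells had Ccr7 at 121 against 58.0 UPM and the chemokine gene Ccl5 at 3622 against 1610 UPM. The differences in Ccr6+ cells of the pool (at most 2.17-fold, Fam83a) and Ccr8+ cells of the IL-18R- ST2+ library (at most 1.66-fold, Ipmk) were smaller.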

How the data were processed

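Per the file headers and values, the deposited matrices hold counts, whole UMIs per gene and barcode, with no normalisation by the authors. Cell Ranger 6.0.1 and mm10 are named, per the submitters' processing notes. The sources used here give neither the annotation nor the strand setting. Kept barcodes had 500 genes or more and no more than 10% mitochondrial UMIs, and Scrublet calls (4, 11 and 11, scanpy 1.11.5) were removed. No removal of free RNA was run. Counts were summed per library and gate and divided by the sum of UMIs (UPM), with exact 95% Poisson, Clopper-Pearson or conditional binomial limits. Shares compared across cells of the pool were taken after 1 random thinning to 2000 UMIs per cell, with the exact (hypergeometric) mean over all thinnings as an alternative chosen after seeing the data. The size rule was tested on simulated data. TMM (edgeR 4.0.16) and DESeq2 1.42.0 size factors (R 4.3.3) were alternatives for scaling only. Coordinates are GENCODE M21 genes on GRCm38. Named genes were all 9 members, up to 4 genes of each list, the 3 most alike genes and the 5 with the highest ratio in positive cells; genes named in Ccr10+ cells beyond these were chosen after their values were seen. The members and lists were chosen with earlier results of these data known. Values of a few genes outside the 9 members are not reported here.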

Additional observations from a re-analysis of the deposited data

Results flagged for a closer look

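The pool over the IL-18R- CD103- GFP- labelled library went in opposite directions in different gates for 2 receptors, and the difference between gates was not tested. Ccr6 had a ratio of 5.57 in gamma delta type 17 cells, 25.6 in other gamma delta cells, 10.2 in other alpha beta cells, 4.08 in unresolved T cells and 2.8 in CD3-low cells with no list, but 0.259 in the Tcf7-associated gate. Ccr2 had a ratio of 2.11 in other alpha beta cells, but 0.416 in the Tcf7-associated gate and 0.365 in CD3-low cells with no list. The Tcf7-associated gate holds 79 pool cells and 38 cells of the IL-18R- CD103- GFP- labelled library, with 16 and 22 Ccr6 UMIs.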

How the results depend on the processing

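No paired analysis was possible because there is 1 library per group and no replicate number. The count of members called between the pool and the IL-18R- CD103- GFP- labelled library stayed between 3 and 5 (4 as reported) in all settings run. The genes differed: in CD3-low cells alone the Ccr6 ratio turned to 0.543, the Cxcr3 call ended (0.509) and Cxcr6 was called lower in the pool. The same restriction gave 8 members called (4 as reported) in the pool against the IL-18R- ST2+ library, and 4 (2 as reported) in the IL-18R- CD103- GFP- labelled library against the IL-18R- ST2+ library, which gave 5 with no minimum level. The count of receptors apart between Itgae+ and Itgae- lymphoid cells (1 as reported) was 2 without thinning, 2 when positive meant at least 2 UMIs, 4 in CD3-low cells, 0 in T cells, 0 in the mean over all thinnings, and 0 with doublets kept, which draws a new thinning. Thinning to 3000 UMIs left it at 1. Of the receptor pairs, Ccr6 with Cxcr3 counted in every setting except CD3-low cells alone. Ccr10 with Ccr6 counted only as reported and in CD3-low cells alone. The Ccr4 call ended under TMM, DESeq2 size factors, all barcodes, a minimum of 50 UPM and in T cells alone. The median log2 ratio of all genes between the pool and the IL-18R- ST2+ library was 0.30 as reported and 0.00 under TMM. A CD3 sum without Cd3g and the mean over all thinnings were chosen after seeing the data. Cells are not replicates, and free RNA, doublets left in and sorting purity were not measured.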
